A study of Mus musculus with 12 samples.

Results

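The microRNAs miR-146a, miR-146b and miR-155 were followed through 12 small RNA libraries of C57BL/6 mouse cells. They were taken by name (mmu-miR-146a, mmu-miR-146b and mmu-miR-155) from the tables of mature miRNAs and are 3 of 548 names listed there. Each of the 12 populations had 1 library, so no difference between populations has a replicate check. The bone marrow gave 4 populations. LSK cells were negative for lineage markers and positive for Sca and cKit. MPP cells had in addition CD135 and CD106, and LMPP cells had CD135 but not CD106. ProB cells were B220+ IgM- CD43hi. From the thymus, DN1, DN2 and DN3 cells lacked CD4, CD8 and CD3 and carried CD90, and were divided into CD44+ CD25- (DN1), CD44+ CD25+ (DN2) and CD44- CD25+ (DN3). DN4 cells lacked CD4, CD8, CD44 and CD25 and were CD3lo and CD90+. DP cells carried CD4 and CD8 with CD3lo and CD90. CD4SP cells had CD4 without CD8, and CD8SP cells had CD8 without CD4; both were CD3hi, CD90+ and CD24lo. MEF are fibroblasts from E14.5 embryos. The labels name no treatment or genetic change in any population, and they do not give the number or age of the adult mice.

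NF-kB is a family of transcription factors switched on by Toll-like, interleukin-1 and antigen receptors. miR-146a is made from an NF-kB-responsive gene and represses Traf6 and Irak1, which act downstream of Toll-like and interleukin-1 receptors. This closes a negative feedback loop. miR-146b carries the same seed, the stretch of a miRNA that pairs with its targets, but comes from another chromosome. miR-155 is processed from the Mir155hg transcript (also called Bic), which antigen receptor and Toll-like receptor signals induce in lymphocytes and macrophages. Among its known targets are Inpp5d (Ship1) and Socs1, both brakes on cytokine and receptor signalling.

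The 3 mature sequences are shown because the seed sets the targets and because miR-146a and miR-146b have to be told apart by single bases. They are RefSeq sequences on GRCm38.p6, 5′ to 3′, with bases 2 to 8, the seed, in capitals.
miR-146a: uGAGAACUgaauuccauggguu
miR-146b: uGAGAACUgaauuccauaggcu
miR-155: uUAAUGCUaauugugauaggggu
miR-146a and miR-146b were identical in 20 of 22 bases (90.9%), with the first 17 bases the same. They differed by G18A and U21C, positions counted from the 5′ end of miR-146a, with the base of miR-146a first. Among 1738 mature mouse miRNAs in RefSeq, the seed GAGAACU occurred in these 2 alone and the seed UAAUGCU in miR-155 alone.

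The gene of miR-146a lies on the minus strand at chr11:43374397-43374461 (Mir146; mature miRNA at chr11:43374435-43374456), and no other gene of GENCODE M21 overlaps it. That of miR-146b lies on the plus strand at chr19:46342762-46342870 (mature miRNA at chr19:46342790-46342811), in an intron of the protein-coding gene Mfsd13a. That of miR-155 lies on the plus strand at chr16:84714140-84714204 (mature miRNA at chr16:84714143-84714165), in an exon of the long noncoding RNA gene Mir155hg.

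The libraries held 63386 (DN4) to 4572864 (DN3) reads assigned to mature miRNAs. Levels are given in RPM, reads per 1000000 such reads, with 95% Poisson intervals that cover counting error only. A count of 0, taken as up to 3 counts, stood for up to 0.656 RPM in DN3 and up to 47.3 RPM in DN4. The libraries were of 3 kinds by the base at which most deposited reads began. It was base 1 of the mature miRNA in DN3 (98.9% of reads), base 2 in DN4, DP and MEF (96.7% to 98.8%), and base 3 in the other 8 libraries (96.3% to 98.6%). A difference across these kinds of library cannot be told apart from a difference in how they were made. The pan-blood miR-142 arms summed to between 8207 and 85573 RPM in the 11 blood libraries and to 159 RPM in MEF. Mesenchymal miRNAs summed to 21959 RPM in MEF and to at most 600.5 RPM in blood. The myeloid miR-223 ran from 0 in DN4 to 17609 RPM in DN1, and the 5 epithelial markers from 74.4 RPM in DP to 766 RPM in DN1.

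miR-146a was highest in DN1 and lowest in DN3. Its level was 2248 RPM in LSK, 1749 RPM in MPP, 1060 RPM in LMPP and 2194 RPM in ProB. In the thymus it was 7079 RPM in DN1, 433 RPM in DN2, 27.0 RPM in DN3 (22.4 to 32.2, from 123.5 reads, since reads shared by several names were split), 1451 RPM in DN4 (1170 to 1780, from 92 reads), 95.4 RPM in DP (70.8 to 126, from 50 reads), 1512 RPM in CD4SP and 853 RPM in CD8SP. MEF had 217 RPM (168 to 276). DN1 stood above every other library, and DN3 and DP below every other library. In DN1 it was the 29th most abundant of all miRNA names, and in DN3 the 213th.

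In the mature tables miR-146b was the least abundant of the 3 in 9 of the 12 libraries. In DN3 and DP it lay above miR-146a, and in DN4 and DP above miR-155. Its level was 1048 RPM in LSK, 693 RPM in MPP, 469 RPM in LMPP and 51.1 RPM in ProB. It was 175 RPM in DN1, 117 RPM in DN2, 479.7 RPM in DN3, 568 RPM in DN4 (398 to 786, from 36 reads), 219.5 RPM in DP, 68.7 RPM in CD4SP and 67.85 RPM in CD8SP. MEF had 4 reads, or 13.0 RPM (3.53 to 33.2), against 6 reads of miR-155. With the 5′ arm reads of the mature and hairpin tables added, MEF had 78.9 RPM of miR-146b and 21.25 RPM of miR-155. The 3 progenitor libraries and DN3 and DN4 were high, and ProB, CD4SP and CD8SP were the low blood libraries of the mature tables.

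miR-155 was the highest of the 3 in LSK, MPP, LMPP, ProB, DN2, DN3, CD4SP and CD8SP. Its level was 7172 RPM in LSK, 6031 RPM in MPP, 5570 RPM in LMPP, 3093 RPM in ProB, 6966 RPM in DN1, 3436 RPM in DN2, 4103 RPM in DN3, 5177 RPM in CD4SP and 4429 RPM in CD8SP. It was 158 RPM in DN4 (75.7 to 290.1, from 10 reads), 45.8 RPM in DP (29.4 to 68.2, from 24 reads) and 19.4 RPM in MEF (7.13 to 42.3, from 6 reads). These 3 low libraries are the 3 whose reads began at base 2. Of 106 miRNAs with at least 1000 RPM in some other library, 34 (32.1%) were likewise lower in all 3 than in any of the other 9, miR-155 among them.

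**Figure D1:**
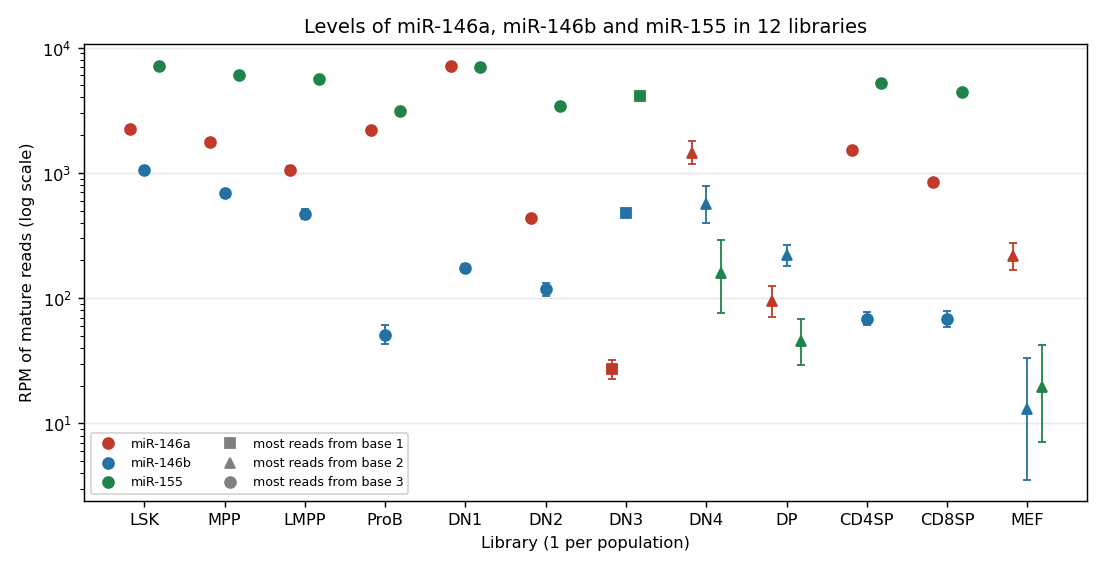
Levels of the 3 miRNAs in each library, in RPM of mature reads on a log axis, 1 library per population; bars are 95% Poisson intervals (counting error only) and the marker shape gives the base from which most reads of the library began. miR-155 stays between 3093 and 7172 RPM in 9 libraries and is at most 158 RPM in DN4, DP and MEF, while miR-146a runs from 7079 RPM in DN1 to 27.0 RPM in DN3.

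The width of these ranges depended on the libraries taken. Highest over lowest, miR-146a spanned 262-fold over all libraries (DN1 over DN3, 219.7 to 315) but 16.4-fold over the 8 libraries read from base 3 (DN1 over DN2, 15.4 to 17.4). miR-146b spanned 80.9-fold over all libraries (31.5 to 297) and 20.5-fold over the 11 blood libraries (LSK over ProB, 17.2 to 24.7). On the 5′ arm reads of both tables its range was narrower, at 16.4-fold over 11 libraries (LSK over MEF, 11.2 to 25.2) and 15.1-fold over the 10 blood libraries among them (LSK over CD8SP, 13.3 to 17.3), with ProB no longer the lowest blood library. miR-155 spanned 369-fold over all libraries (LSK over MEF, 169.5 to 1006), 157-fold over blood (LSK over DP) and 2.32-fold over the 8 libraries read from base 3 (LSK over ProB, 2.25 to 2.39). Among 139 miRNAs that reached 1000 RPM somewhere, whose median range was 120.4-fold, the ranges over all libraries in the mature tables took places 50 for miR-146a, 79 for miR-146b and 42 for miR-155. Between neighbours in the order of levels, counting error could not separate LSK from ProB or CD4SP from DN4 for miR-146a, or DP from MEF for miR-155. For miR-146b it could not separate MPP from DN4, DN4 from DN3, DN3 from LMPP or CD4SP from CD8SP. MPP and LMPP, which are not neighbours in that order, were apart, with a ratio of 0.676 in LMPP (0.607 to 0.752).

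For each pair of libraries below, a miRNA was called if the 95% interval of its ratio (exact conditional binomial) was entirely past 2-fold, provided that at least 100 RPM and 10 reads were seen in the library with more of it. The share of all miRNAs tested that passed this rule is given beside the members' count.

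Among the marrow progenitors the 3 miRNAs were close together. From LSK to MPP none of the 3 was called, where 2.14% of 140 miRNAs were, and the ratios in MPP were 0.778 for miR-146a (0.743 to 0.815), 0.662 for miR-146b (0.616 to 0.711) and 0.841 for miR-155. From MPP to LMPP none was called, against 14.8% of 155 miRNAs, with ratios of 0.606 for miR-146a (0.565 to 0.650), 0.676 for miR-146b and 0.924 for miR-155 (0.894 to 0.954). In RPM, each of the 6 intervals lay below 1 and none reached beyond 2-fold. With TMM factors, another scaling of the libraries, the ratio of miR-146a in LMPP to MPP was 0.499 (0.465 to 0.535). That interval reached past 2-fold in part, and the ratio was not called.

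The steps out of LMPP separated miR-146a from miR-146b. From LMPP to ProB, 1 of the 3 was called, against 38.2% of 157 miRNAs: miR-146b was 9.18-fold lower in ProB (7.54 to 11.2). The call held at 4.23-fold (3.74 to 4.79) with the 5′ arm reads of both tables added, where the hairpin table held 68.2% of those of miR-146b in ProB. miR-146a stood 2.07-fold above LMPP (1.94 to 2.21), and each of 3 other scalings called it higher, at 2.28-fold to 3.39-fold. miR-155 stood 1.80-fold below LMPP (1.74 to 1.86), or 1.10-fold below it with TMM factors. From LMPP to DN1, 2 of the 3 were called, against 47.5% of 158 miRNAs. miR-146a was 6.68-fold higher in DN1 (6.28 to 7.11), a direction in which 9.49% of miRNAs were called, and 10.1-fold higher with TMM factors. Beside it, the mature lymphocyte miRNAs miR-150 and miR-342-3p summed to 4134 RPM in LMPP and 54831 RPM in DN1, and miR-223 was at 10296 and 17609 RPM. The 5 epithelial miRNAs summed to 319.6 and 766 RPM. Among them miR-200b (65.87 and 53.54 RPM) and miR-429 (93.95 and 74.05 RPM) were lower in DN1. The part of these markers was not tested. miR-146b was 2.68-fold lower (2.37 to 3.03), and this call was lost with other scalings of the libraries (1.77-fold and 1.82-fold) and with the hairpin tables added (2.06-fold). miR-155 had a ratio of 1.25 in DN1 (1.22 to 1.29), or 1.89 with TMM factors.

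miR-146a was lower at each of the first thymic steps. From DN1 to DN2 it was 16.4-fold lower (15.4 to 17.4), the 1 call among the 3, where 38.1% of 139 miRNAs were called and 17.3% were called lower. miR-155 was 2.03-fold below DN1 (1.98 to 2.08), just short of the rule, and miR-146b 1.49-fold below it (1.29 to 1.72). Markers of other cells moved at the same step. miR-223, the 1 myeloid marker, was at 17609 RPM in DN1 and 869 RPM in DN2, the mature lymphocyte miRNAs miR-150 and miR-342-3p summed to 54831 RPM in DN1 and 3838 RPM in DN2, and the 5 epithelial miRNAs summed to 766 and 114 RPM, with none at 0. Their part in the result was not tested. In bulk libraries fewer cells of a type and less miRNA per cell cannot be told apart.

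From DN2 to DN3, where the kind of library changed too, miR-146a was a further 16.0-fold lower (13.3 to 19.5) and miR-146b was 4.08-fold higher (3.61 to 4.64), so 2 of the 3 were called, against 46.0% of 163 miRNAs. The ratio of miR-155 in DN3 was 1.19 (1.16 to 1.23), and lay below 1 with size factors (0.920) and TMM factors (0.957). Between DN2 and DN3 the mature lymphocyte list went from 3838 to 419 RPM and miR-223 from 869 to 65.2 RPM. The 3 erythroid miRNAs summed to 569 RPM in DN2 and 4652 RPM in DN3. Most of this was miR-451 (422.4 and 4258 RPM), and miR-486 was lower in DN3 (124.1 and 92.94 RPM). The part of these markers was not tested. The call of miR-146b rested on which read forms the deposited table of DN3 accepted, as described with the read forms below. With the 5′ arm reads of the mature and hairpin tables added, it was 2.07-fold higher (1.89 to 2.26) and no longer called, while miR-146a had 420.3 RPM in DN2 and 27.1 RPM in DN3 on that scale.

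From DN3 to DN4 the libraries again differed in kind, and 2 of the 3 miRNAs were called, against 64.7% of 173. DN4 held 53.7-fold more miR-146a (40.6 to 71.0) and miR-155 was 26.0-fold lower (14.1 to 54.3), with 10 reads of miR-155 in DN4. With TMM factors these folds were 28.1 and 49.8. The ratio of miR-146b was 1.18 (0.827 to 1.64), with values from 0.619 (TMM factors) to 1.95 (5′ arm of both tables). From DN4 to DP, both read from base 2, miR-146a was 15.2-fold lower (10.7 to 21.9) and was the 1 member called, where 53.2% of 141 miRNAs were called and 52.5% were called lower. miR-146b was 2.59-fold below DN4 (1.73 to 3.79) and miR-155 3.44-fold below it (1.47 to 7.47). In DP the thymocyte miRNAs miR-181a and miR-181b summed to 573841 of every 1000000 reads, against 238002 in DN4. The size factors and TMM factors raised every ratio of DP to DN4 by 1.57 and 1.79 on the log2 scale, and miR-146a was still called lower with both, at 5.12-fold and 4.39-fold. The ratios of miR-146b and miR-155 then had intervals that held 1, at 1.15 and 1.34 for miR-146b and 0.863 and 1.01 for miR-155.

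From DP to CD4SP all 3 were called, where 78.9% of 142 miRNAs were. miR-155 was 113-fold higher in CD4SP (75.9 to 176), miR-146a 15.8-fold higher (12 to 21.4) and miR-146b 3.20-fold lower (2.56 to 3.97). From DP to CD8SP all 3 were called as well, against 78.3% of 152 miRNAs, with miR-155 96.7-fold higher (64.9 to 151), miR-146a 8.94-fold higher (6.76 to 12.1) and miR-146b 3.24-fold lower (2.54 to 4.11). Without the 3 most abundant miRNAs in the total, the folds to CD8SP were 60.1, 5.55 and 5.21, and all 3 were called. These comparisons share DP and cross from reads of base 2 to reads of base 3. Between CD4SP and CD8SP none was called, against 15.2% of 132 miRNAs. miR-146a was 1.77-fold below CD4SP in CD8SP (1.69 to 1.86), miR-155 1.17-fold below it, and miR-146b, under the minimum of 100 RPM in both, had a ratio of 0.988 (0.817 to 1.19).

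Set against DN1 and DN2, which share their kind of library, the CD4SP and CD8SP libraries differed from DN1 in miR-146a. In RPM they passed the rule for miR-155 in no pair. From DN1, miR-146a was 4.68-fold lower in CD4SP (4.56 to 4.81) and 8.30-fold lower in CD8SP (7.95 to 8.67). miR-146b was 2.55-fold lower in CD4SP (2.22 to 2.92) and 2.58-fold lower in CD8SP (2.18 to 3.06), so 2 of the 3 were called in each, against 37.2% of 137 and 27.7% of 141 miRNAs. Both calls of miR-146b were lost with each of the 3 other scalings, at 1.90-fold to 2.21-fold. miR-155 was 1.35-fold and 1.57-fold below DN1 in CD4SP and CD8SP. From DN2, miR-146a was 3.49-fold higher in CD4SP (3.27 to 3.73), the 1 call there, against 48.6% of 142 miRNAs. In CD8SP it stood 1.97-fold above DN2 (1.83 to 2.12) and none of the 3 was called, against 41.6% of 149. miR-146a was called there with size factors (2.58-fold) and TMM factors (2.61-fold), but not without the 3 most abundant miRNAs (1.95-fold). miR-155 had ratios to DN2 of 1.51 in CD4SP and 1.29 in CD8SP. That in CD4SP was called with size factors (2.23) and TMM factors (2.07), but not without the 3 most abundant miRNAs (1.70). That in CD8SP was called with none of these scalings.

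Between the B lineage and the T lineage, from ProB to DN2, miR-146a was 5.07-fold lower (4.74 to 5.42) and was the 1 call, against 28.4% of 141 miRNAs. miR-146b stood 2.30-fold above ProB (1.86 to 2.85) and the ratio of miR-155 was 1.11 (1.08 to 1.15), or 0.945 with TMM factors. Against MEF, all 3 were higher in DN4, by 6.69-fold for miR-146a (4.83 to 9.30), 43.8-fold for miR-146b (15.7 to 169.5) and 8.12-fold for miR-155 (2.67 to 27.2), where 75.9% of 220 miRNAs were called. In DP, miR-146b alone was called, 16.9-fold higher than in MEF (6.44 to 63.2), against 74.0% of 200 miRNAs. The MEF values of miR-146b and miR-155 rest on 4 and 6 reads. With the 5′ arm reads of both tables, where MEF had 26 of miR-146b, its ratios were 11.8 in DN4 (7.46 to 19.4) and 4.42 in DP (2.93 to 6.92), both called. The ratio of miR-146a in DP to MEF was 0.440 (0.299 to 0.644), but 1.21 with TMM factors and 0.986 without the 3 most abundant miRNAs. With size factors, the calls of miR-146a (2.06-fold) and miR-155 (2.50-fold) from MEF to DN4 were lost and that of miR-146b held at 13.5-fold. Without the 3 most abundant miRNAs, miR-155 was also called higher in DP (5.29-fold).

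**Figure D2:**
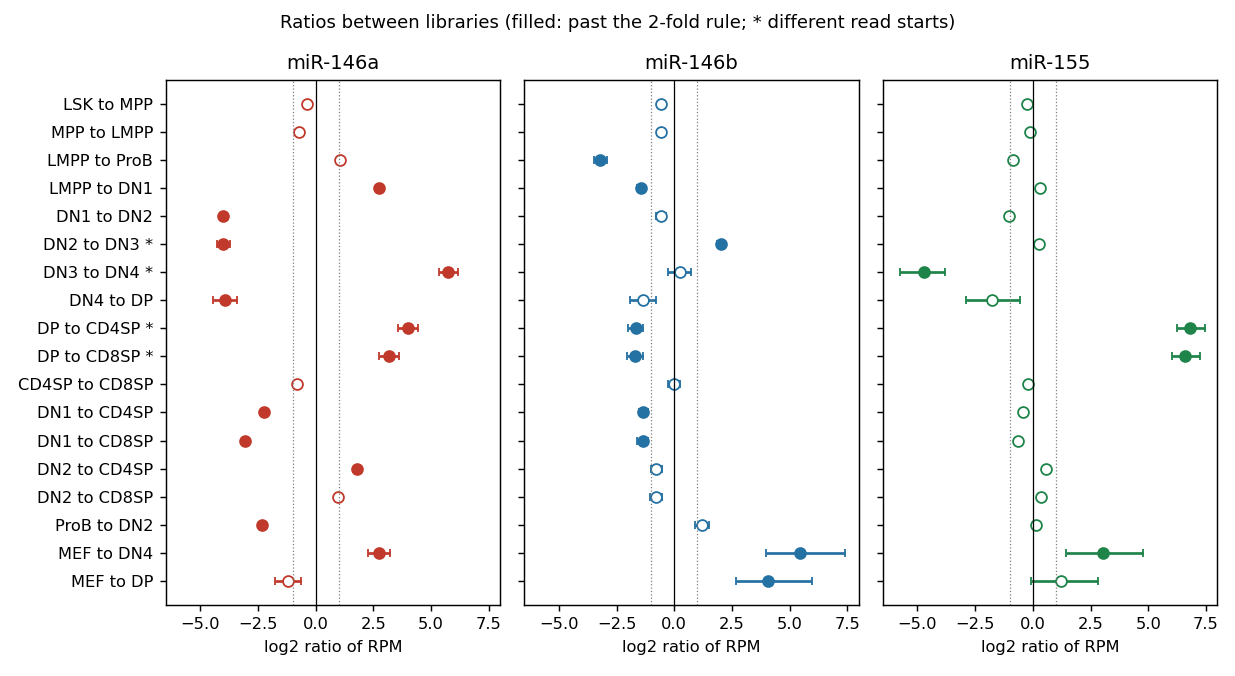
log2 ratio of RPM, second library over first, for each miRNA in the 18 comparisons, with 95% intervals (counting error only); filled points passed the 2-fold rule, dotted lines mark 2-fold and an asterisk marks pairs whose reads began at different bases. The filled points of miR-155 are DN3 to DN4, DP to CD4SP and DP to CD8SP, each with an asterisk, and MEF to DN4, while miR-146a has filled points in both kinds of comparison.

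The balance between miR-146a and miR-146b, which share a seed, was reversed in DN3 and DP. In the mature tables miR-146a made up 68.2% of the reads of both in LSK (exact binomial interval 67.0 to 69.4), 71.6% in MPP and 69.3% in LMPP. It made up 97.7% in ProB, 97.6% in DN1 and 78.7% in DN2 (76.4 to 80.8). In DN3 it made up 5.33% (4.47 to 6.34) and in DP 30.3% (23.4 to 37.9), and these were the 2 libraries in which miR-146b was the more abundant. The share was 71.9% in DN4 (63.2 to 79.5), 95.7% in CD4SP, 92.6% in CD8SP and 94.4% in MEF. The summed level of both was 7254 RPM in DN1, 550.2 RPM in DN2, 507 RPM in DN3, 2019 RPM in DN4 and 315 RPM in DP.

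These shares did not rest on ambiguous reads. Every read of the 2 covered position 18, where they first differ, and 97.7% to 100% covered both differing positions. At most 0.817% of the reads in a library were listed under both names. With 5′ arm reads of the hairpin table added, the share of miR-146a was 5.35% in DN3 and 21.5% in DP, and in the other 9 libraries with both tables it was lower than in the mature table, for example 62.9% in LSK, 64.4% in DN2, 58.3% in DN4 and 73.5% in MEF.

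**Figure D3:**
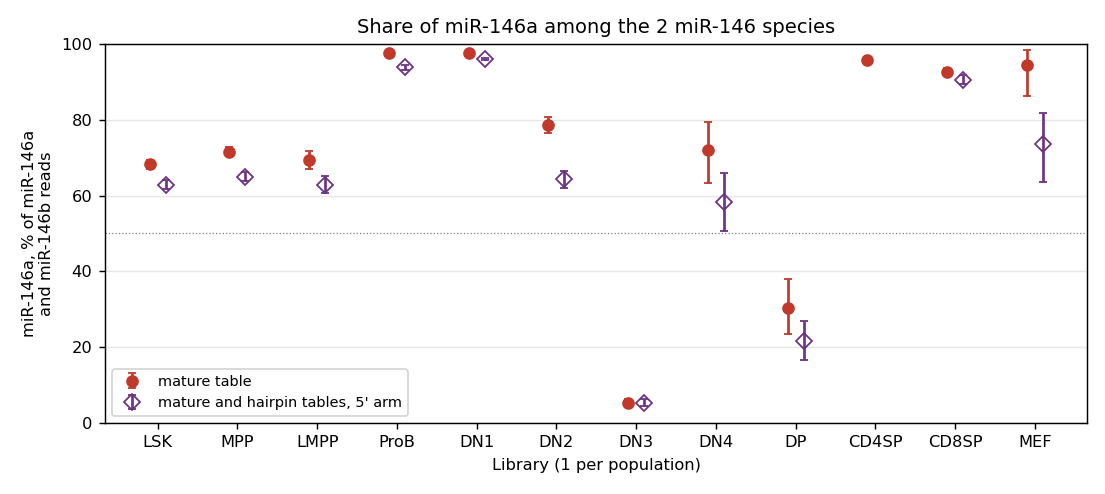
Share of miR-146a among the reads of miR-146a and miR-146b in each library, in percent, from the mature table (circles) and from the 5′ arm reads of the mature and hairpin tables (diamonds, 11 libraries); bars are exact 95% binomial intervals. DN3 (5.33%) and DP (30.3%) lie below 50% with either count, and the other libraries lie above it.

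The read forms of the 3 miRNAs differed at the 3′ end. The hairpins below, from RefSeq, show the 5′ mature miRNA in capitals and the templated bases that follow it.
miR-146a hairpin: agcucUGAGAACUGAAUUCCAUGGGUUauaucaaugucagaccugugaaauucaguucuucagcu
miR-146b hairpin: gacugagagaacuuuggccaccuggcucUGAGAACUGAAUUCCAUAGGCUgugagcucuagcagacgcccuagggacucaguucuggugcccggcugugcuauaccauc
miR-155 hairpin: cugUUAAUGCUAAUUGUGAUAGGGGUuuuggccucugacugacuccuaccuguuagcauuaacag
A read was placed when its bases matched the hairpin without mismatch from its start to at least base 17 and no more than 4 unmatched bases, its tail, followed. The commonest reads of the miR-146 pair in DN1 and DN3 are given as deposited, with an added base in capitals. Full length here refers to the 3′ end alone. The DN1 reads begin at base 3 of the mature miRNA and the DN3 read at base 1.
miR-146a in DN1, tailed: agaactgaattccatgggttT
miR-146a in DN1, full length: agaactgaattccatgggtt
miR-146b in DN1, full length: agaactgaattccataggct
miR-146b in DN1, longer end: agaactgaattccataggctgt
miR-146b in DN3, longer end: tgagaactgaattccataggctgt

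The commonest read of miR-146a in DN1 ran from base 3 to the mature 3′ end with 1 U added. It had 10079 reads or 33.9% of the 5′ arm reads, ahead of the form with no tail at 8017 reads or 26.9%. The hairpin has A at that place, so the U is not templated. Reads of miR-146a with an added U tail made up 25.2% (ProB, 24.1 to 26.3) to 37.2% (DN1, 36.7 to 37.8) of placed reads in the 8 libraries with both tables and at least 100 placed reads. miR-146b had 1.05% (DP) to 7.63% (CD8SP) over 9 such libraries. As counted, the lowest value of miR-146a thus lay above the highest of miR-146b. miR-155 had 1.03% to 4.75% over 8. The figures are not on an equal footing for miR-155, because the next bases of its hairpin are U and a U added at its mature end reads as templated. In the miR-146b hairpin G and then U follow the mature end. A U added to a miR-146b read ending 1 past that end therefore reads as templated. Reads of miR-146b ending 2 past it made up 19.5% (CD8SP) to 59.5% (ProB), and added and templated U cannot be told apart in them.

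As counted, added A tails were commonest on miR-155, at 8.71% (DN2, 8.16 to 9.28) to 16.3% (MPP) of placed reads. miR-146a had 1.58% to 4.05% and miR-146b 0.526% to 4.58%. These figures are not on an equal footing for miR-146a. The next base of its hairpin is A, and an A added at its mature end reads as templated. Reads of miR-146a ending 1 past the mature end made up 1.65% (DN3) to 12.1% (ProB), and added and templated A cannot be told apart there. LSK (16.0%), MPP, LMPP (14.9%) and DN1 (14.1%) were the high libraries of miR-155, and ProB (9.76%), DN2, DN3 (9.55%) and CD8SP (9.95%) the low ones.

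Among the libraries read from base 3, the matched 3′ ends of miR-146b and miR-155 reads reached furthest in ProB and DN2. For miR-146b, reads whose last templated base lay 2 past the listed mature end made up 22.0% in LSK, 27.3% in MPP, 26.7% in LMPP, 38.1% in DN1, 38.6% in DN3, 41.6% in DP and 19.5% in CD8SP, against 59.5% in ProB and 48.2% in DN2. For miR-155, reads ending 1 past it made up 13.4% in LSK, 16.8% in MPP, 18.4% in LMPP, 15.9% in DN1 and 17.1% in CD8SP, against 37.9% in ProB, 31.0% in DN2 and 23.9% in DN3. The next bases of the miR-155 hairpin are U, so a U added at its mature end counts as such a longer end. Added and templated U cannot be told apart there. The same holds for the last base of miR-146b reads ending 2 past the mature end, which is U. The commonest end of miR-155 was 2 bases short of the mature end in LSK (36.0% of placed reads), MPP and LMPP, the mature end itself in DN1, DN2, DN3 and CD8SP, and 1 base past it in ProB. The mean last base of all mature reads moved in the same direction, at 22.31 in ProB, 22.23 in DN2 and 22.29 in DN3 against 21.95 to 22.15 in LSK, MPP, LMPP, DN1 and CD8SP. Its part in the result was not tested.

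The longer end also decided which table a read of miR-146b fell in. The form that ends 2 bases past the mature end had 826 reads in the mature table and 4 in the hairpin table in DN3. In the other 10 libraries with both tables it had 0 reads in the mature table and 18 (MEF) to 546 (LSK) in the hairpin table. Accordingly 8.22% of the 5′ arm reads of miR-146b in DN3 stood in the hairpin table, against a median of 43.6% over the 11 libraries and 84.6% in MEF. For miR-146a this share was 6.12% to 10.7%, and for miR-155 it was 5.70% (DN3) to 25.3% (ProB). The mature tables thus leave out more of miR-146b than of the other 2 in every library with both tables apart from DN3.

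**Figure D4:**
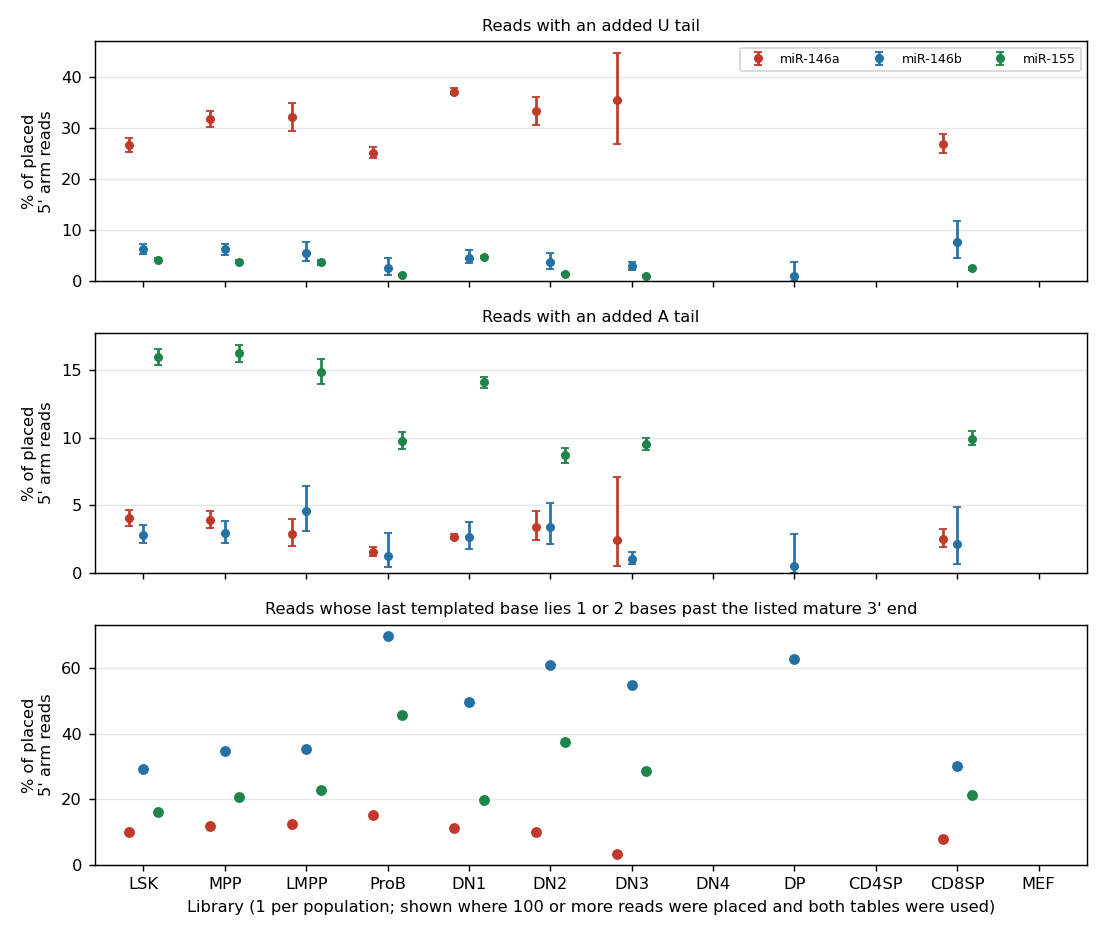
Share of placed 5′ arm reads, in percent, with an added U tail (top), with an added A tail (middle) and with the last templated base 1 or 2 bases past the listed mature end (bottom), for libraries with both tables and at least 100 placed reads; bars are exact 95% binomial intervals. U tails of miR-146a (25.2% to 37.2%) lie above those of the other miRNAs in every library shown for both. A tails of miR-155 (8.71% to 16.3%) likewise lie above those of the others as counted. At the mature end an added U on miR-155 or an added A on miR-146a reads as templated and is not counted as a tail. The same holds for a U added to miR-146b reads ending 1 base past it.

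The opposite arm of each hairpin, the strand that is mostly discarded, was rare. For miR-146b the 3′ arm made up 1.24% (DN1) to 7.14% (MEF, 2 reads) of the reads of both arms, with 242 reads over the 11 libraries and at least 1 in each. For miR-146a it made up at most 0.176% (ProB), with 25 reads in 5 libraries, and for miR-155 at most 0.0567% (ProB), with 16 reads in 6 libraries. In every library with both tables the 3′ share of miR-146b was above those of miR-146a and miR-155, though on 1 read in DN4. The 3′ reads did not come from the same tables. Those of miR-146b stood mostly in the mature tables (46 of 52 in LSK), and those of miR-146a and miR-155 in the hairpin tables alone.

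A list of 14 other miRNAs with reported links to NF-kB signalling, upstream or downstream of it, was read beside the 3. From DN1 to DN2, where miR-146a was lower, 3 of 9 tested were lower and 1 was higher, with a median log2 ratio of -0.50 against 0.11 for all 139 tested, of which 17.3% were lower and 20.9% higher. The lower ones were miR-223 (20.3-fold), miR-10a (7.47-fold) and miR-125a-5p, and the higher one was miR-181b (2.67-fold), known in other cells to target the nuclear importer importin-α3. From DN2 to DN3, where the kind of library changed too, 4 of 10 were lower and 2 higher (median -0.06 against 0.27). Of all tested, 14.1% were lower and 31.9% higher. On the lower side were miR-21, miR-10a, miR-125a-5p and miR-223, and on the higher miR-23b and miR-181b. miR-10a was lower at both steps, as miR-146a was, at 878 RPM in DN1, 117 RPM in DN2 and 12.7 RPM in DN3, and stood at 694 RPM in DN4 and 55.4 RPM in DP. miR-21, induced by STAT3 in several cell types, was instead at 159118 RPM in DN1 and 112534 RPM in DN2, and was 2.51-fold lower in DN3.

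The later steps gave the following counts. From DN3 to DN4, from DP to CD4SP and from DP to CD8SP the kind of library changed too. Of the list, miR-15a, miR-16, miR-21 and miR-23b are among the 34 miRNAs, of 106, that were lowest in the 3 libraries read from base 2. The part of this division in the counts was not tested. From DN3 to DN4, 4 of 8 were lower (miR-15a, miR-16, miR-21 and miR-23b) and 1 higher, miR-10a (median -1.28 against 0.04), where 28.3% of all tested were lower and 36.4% higher. From DN4 to DP, 2 of 7 were lower, miR-10a and miR-21 (median -0.36 against -1.50), where 52.5% of all were lower. From DP to CD4SP, 5 of 8 were higher and 2 lower (median 2.86 against 0.70), where 45.1% of all were higher and 33.8% lower. From DP to CD8SP, 6 of 9 were higher and 2 lower (median 4.71 against 1.20), where 50% of all were higher and 28.3% lower. Higher in both were miR-15a, miR-16, miR-21, miR-125a-5p and miR-132, and lower in both were miR-125b-5p and miR-181b. miR-132, a miRNA induced by CREB, was the list member at 621 RPM in CD4SP and 337 RPM in CD8SP against 34.9 RPM in DN1 and 15.8 RPM in DN2. From LMPP, 4 of 9 were lower in ProB (median -0.59 for the list and for all 157), where 30.6% of all were, and 3 of 9 were lower in DN1 (median -0.01 against -0.75), where 38% of all were, with miR-10a, miR-125a-5p and miR-125b-5p lower in both. From LSK to MPP and from MPP to LMPP none of 9 was called (medians 0.01 and 0.14 against 0.03 and 0.17).

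In the remaining comparisons the list split both ways. From DN1, 2 of 9 were higher and 4 lower in CD4SP, against 13.9% and 23.4% of all tested (median -0.07 against -0.20). In CD8SP, 1 of 9 was higher and 3 lower, against 13.5% and 14.2% (median -0.29 against 0.10). From DN2, 2 of 10 were higher and 4 lower in CD4SP, against 14.1% and 34.5% (median -0.46 against -0.42), and 2 higher and 5 lower in CD8SP, against 19.5% and 22.1% (median -1 against -0.07). From ProB to DN2, 1 of 9 was higher (miR-223) and 2 lower, against 11.3% and 17% (median 0.05 against 0.03). Between CD4SP and CD8SP, miR-125a-5p and miR-223 were higher and miR-181b lower in CD8SP, of 8, against 11.4% and 3.79% (median -0.30 against 0.25). Against MEF, 4 of 9 were higher and 4 lower in DN4, where 40.5% and 35.5% of all were (median -0.98 against 0.67). In DP, 3 of 9 were higher and 5 lower than in MEF, where 23% and 51% of all were (median -3.70 against -1.77).

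How alike the levels of the 3 miRNAs ran depended on the libraries taken. Across the 12 libraries, which share the division by read start and by depth, Pearson's r of log2(RPM + 1) was 0.08 between miR-146a and miR-146b, 0.44 between miR-146a and miR-155 and 0.37 between miR-146b and miR-155. Over the 8 libraries read from base 3, r was 0.17, 0.56 and 0.72 for the same pairs, and Spearman's rho over all 12 was 0.19, 0.66 and 0.49. These are descriptions over libraries and not tests. Of 275 miRNAs that reached 100 RPM somewhere, those most like miR-146a were miR-148b (0.77), miR-342-3p (0.69) and miR-139-5p (0.69), and the most unlike was miR-652 (-0.71), which had 3507 RPM in DN3, the lowest library of miR-146a. Most like miR-146b were miR-181c (0.81), miR-181d (0.77) and miR-101b (0.73), and the most unlike was miR-1188 (-0.63), which had reads in MEF alone. Most like miR-155 were let-7f, let-7a and miR-32 (0.98 each), and the most unlike was miR-210 (-0.96), which had 1167 RPM in DN4, 1140 RPM in DP and 3359 RPM in MEF and at most 82.9 RPM elsewhere.

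The likeness of miR-155 to let-7f followed the division by read start. Over the 8 libraries read from base 3 alone, its r with let-7f was -0.00, with let-7a 0.31 and with miR-32 0.49. Within those libraries let-7f ran from 32296 to 50144 RPM and miR-155 from 3093 to 7172 RPM. For miR-146a the values over the same 8 libraries were 0.17 for miR-148b, 0.19 for miR-342-3p and 0.45 for miR-139-5p, and for miR-146b they were 0.79 for miR-181c, 0.58 for miR-181d and 0.70 for miR-101b. Over those 8 libraries the 3 named for miR-146b took places 54, 111 and 84 of 269, and without MEF places 9, 42 and 48 of 270, so other miRNAs were more like it there. For miR-146a the places over the 8 were 79, 71 and 11, and for miR-155 let-7f, let-7a and miR-32 took places 164, 119 and 68.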

How the data were processed

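Small RNA was sequenced from 12 populations, 1 library each. Per the labels' protocols, small RNA of 19 to 24 nt was gel-purified, and ligation required a phosphate at the 5′ end and a hydroxyl at the 3′ end. The deposited tables give, per the file headers, the raw read count of each distinct sequence with its miRNA name, length and position. A first table holds mature miRNAs and a second the remaining reads on hairpins. The hairpin table was used for 11 libraries (not CD4SP), and in CD8SP the names showed that the 2 tables were exchanged. How reads were trimmed, aligned and matched, and to which miRNA release, is not given in the sources used here.

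Reads were added up per name, with sequences of several names split equally, and divided by the library's mature reads. With 1 library per population there is no test. Levels carry exact 95% Poisson intervals, ratios exact conditional binomial (Clopper-Pearson) intervals and shares exact binomial intervals. Since PCR copies are not separate molecules, these cover counting error only. The call rule asked for an interval beyond 2-fold, with 100 RPM and 10 reads in the higher library. It was run on simulated counts with Poisson error only. Those hold no variation between libraries, so they cannot show how the rule behaves under it. Named miRNAs were the 3 members, called miRNAs of the NF-kB list, and for each member the 3 of highest and the 1 of lowest r. Marker lists were myeloid, erythroid, mesenchymal, epithelial, pan-blood, mature lymphocyte, thymocyte, progenitor and endothelial. In blood libraries the erythroid list summed to 19.1 to 4655 RPM, the progenitor list to 68.7 to 48302 RPM and the endothelial list to 19.1 to 23440 RPM. The members and lists were chosen with earlier results of these data known.

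Alternatives were DESeq2 1.42.0 size factors, edgeR 4.0.16 TMM factors, a total without the 3 most abundant miRNAs (miR-16, miR-181a and miR-20a), other treatments of shared, rare and mismatched sequences, both tables, thinning, and rules of 1.5-fold and 4-fold or without minima. Scripts used Python 3.11.15, numpy 2.4.6, scipy 1.17.1, pandas 2.3.3 and R 4.3.3.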

Additional observations from a re-analysis of the deposited data

How the results depend on the processing

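Of 54 ratios, 25 passed the rule, close to the share of all tested miRNAs that passed it, which is given below. The ratios of miR-146b from CD4SP to CD8SP and of miR-155 from MEF to DP were under its minima and so could not pass. Of the 25, 15 passed in every setting that could be run, and none of the 25 turned direction in any. The 1.5-fold rule and the rule without minima could not remove a call. Of the other 29, 16 passed in none. No paired analysis was possible because each population has 1 library and the labels give no replicate numbers. Leaving out a replicate was not possible for the same reason.

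Lost or gained calls, as folds of the higher over the lower library, were these. With size factors, miR-146b fell out from LMPP to DN1 (1.82), from DN1 to CD4SP (1.94) and from DN1 to CD8SP (2.21), miR-146a (2.06) and miR-155 (2.50) from MEF to DN4, while miR-146a came in from LMPP to ProB (2.75) and DN2 to CD8SP (2.58), and miR-155 from DN1 to DN2 (2.28) and DN2 to CD4SP (2.23). With TMM factors the same 3 ratios of miR-146b fell out (1.77, 2.01 and 2.11), with miR-155 from MEF to DN4 (6.46), and the same 4 ratios came in (3.39, 2.61, 2.20 and 2.07). Without the 3 most abundant miRNAs, miR-146b fell out from DN1 to CD4SP (1.90) and CD8SP (2.19), and miR-146a from LMPP to ProB (2.28) and miR-155 from MEF to DP (5.29) came in. The TMM ratio of miR-155 from MEF to DN4 stayed past 2-fold (2.13 to 21.6), but its DN4 level, at 72.7 RPM, was under the minimum of 100. Scalings also shift all ratios of a pair, for example by 0.71 on the log2 scale from LMPP to ProB with TMM.

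With sequences seen in 1 read left out, miR-155 from MEF to DN4 fell out (4.95). With perfect matches only it fell out too (7.16), and miR-146a came in from LMPP to ProB (2.26) and DN2 to CD8SP (2.42). Thinned to the shallowest library, miR-146b fell out from LMPP to DN1 (1.84), DN2 to DN3 (4.50), DP to CD4SP and CD8SP (2.50 each), DN1 to CD4SP and CD8SP (4 each) and MEF to DP (5), and miR-155 from MEF to DN4 (10), since few reads remained. With both tables and arms added, miR-146b fell out from LMPP to DN1 (2.07) and DN2 to DN3 (2.06) and came in from DN2 to CD8SP (2.71). With the 5′ arm of both tables, a setting chosen after seeing the data, it fell out from LMPP to DN1 (2.06) and DN2 to DN3 (2.07) and came in from DN4 to DP (2.68) and DN2 to CD8SP (2.70).

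The 1.5-fold rule added miR-146a from MPP to LMPP (1.65), LMPP to ProB (2.07), CD4SP to CD8SP (1.77), DN2 to CD8SP (1.97) and MEF to DP (2.27), miR-146b from DN4 to DP (2.59) and ProB to DN2 (2.30), and miR-155 from LMPP to ProB (1.80), DN1 to DN2 (2.03) and DN1 to CD8SP (1.57). The 4-fold rule removed miR-146b from LMPP to DN1 (2.68), DN2 to DN3 (4.08), DP to CD4SP (3.20), DP to CD8SP (3.24), DN1 to CD4SP (2.55) and DN1 to CD8SP (2.58), miR-146a from DN2 to CD4SP (3.49) and miR-155 from MEF to DN4 (8.12). Over all comparisons together, 46.8% of tested miRNAs were called, beside 25 of the 54 ratios of the members. The share was 27.1% with the 4-fold rule and 26.1% without minima, where more miRNAs enter.

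With both tables the share of miR-146a was 96.1% in DN1, 93.8% in ProB, 90.6% in CD8SP, 73.5% in MEF, 64.9% in MPP, 64.4% in DN2, 62.9% in LSK, 62.8% in LMPP, 58.3% in DN4 and 21.5% in DP. Counting shared sequences in full or leaving them out moved no call. Depth limits DN4, DP and MEF, where the 3 miRNAs rest on 4 to 115 reads.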
